A study of Mus musculus with 4 samples.

Results

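The V(D)J recombination and end joining genes are 10 of the 24421 genes listed for sorted thymocytes, chosen by symbol for their role, with earlier results of these data known: *Rag1*, *Rag2*, *Dntt*, *Xrcc5*, *Xrcc6*, *Prkdc*, *Dclre1c*, *Lig4*, *Xrcc4* and *Nhej1*. All 10 were found, and each of them was expressed above the minimum used for testing. Their levels were measured by RNA sequencing in CD69+CD4+CD8+ double-positive (DP) thymocytes, cells that have begun to receive a TCR signal, from 6-week-old C57BL/6 mice. The 2 control samples came from Foxa1fl/flFoxa2fl/fl CD4Cre- mice and the 2 Foxa1/2cKO samples from Foxa1fl/flFoxa2fl/fl CD4Cre+ mice, so both groups carry the floxed alleles of both genes and differ in the Cre transgene. Cre is driven by the *Cd4* promoter and acts from the DP stage, which is after thymocytes have started to make RAG. No mouse gave cells to more than 1 sample, and a sort used 2 mice per genotype, but the methods do not say whether cells of these mice were pooled in a sample. The comparison asks which transcripts depend on Foxa1 and Foxa2 in cells undergoing positive selection.

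V(D)J recombination assembles the antigen receptor genes of lymphocytes from separate segments. The RAG1 and RAG2 proteins form the recombinase that cuts DNA at recombination signal sequences, and the cut ends are joined by the non-homologous end joining pathway, which all cell types use for double-strand breaks. Ku binds the ends, DNA-PKcs and Artemis open the hairpins left by the cut, terminal deoxynucleotidyl transferase (TdT) adds untemplated bases, and the ligase IV complex seals the join. DP thymocytes rearrange *Tcra* with this machinery until positive selection, when TCR signalling shuts recombination down.

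The first 250 bases upstream of the annotated starts of *Rag1*, *Rag2* and *Dntt* are shown because these are the lymphocyte-restricted members and the deleted factors bind DNA through a forkhead motif. They are RefSeq sequences of GRCm38.p6, the assembly that mm10 names, written 5′ to 3′ on the strand of the gene. The *Rag1* stretch is at chr2:101649533-101649782 on the minus strand, that of *Rag2* at chr2:101624462-101624711 on the plus strand, and that of *Dntt* at chr19:41029025-41029274 on the plus strand. Capitals mark matches to the E-box form CAGNTG, in which N is any base, on either strand. Other forms of the E-box were not searched.
Rag1: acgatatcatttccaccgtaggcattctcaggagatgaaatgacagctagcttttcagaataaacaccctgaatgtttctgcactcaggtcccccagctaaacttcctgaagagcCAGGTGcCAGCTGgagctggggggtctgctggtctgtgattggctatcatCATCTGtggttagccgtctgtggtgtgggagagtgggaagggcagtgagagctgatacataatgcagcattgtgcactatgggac
Rag2: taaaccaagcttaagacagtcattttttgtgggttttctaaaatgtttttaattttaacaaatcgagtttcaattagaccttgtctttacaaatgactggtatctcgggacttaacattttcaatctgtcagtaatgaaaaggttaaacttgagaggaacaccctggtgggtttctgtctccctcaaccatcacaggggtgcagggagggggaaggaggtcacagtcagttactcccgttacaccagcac
Dntt: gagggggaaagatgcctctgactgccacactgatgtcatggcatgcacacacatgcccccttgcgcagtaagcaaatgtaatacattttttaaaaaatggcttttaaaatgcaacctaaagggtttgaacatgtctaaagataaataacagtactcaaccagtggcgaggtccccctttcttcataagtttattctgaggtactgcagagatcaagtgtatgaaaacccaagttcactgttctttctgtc

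The *Rag1* stretch held 3 matches to CAGNTG, and those of *Rag2* and *Dntt* held 0. The *Rag1* matches begin at positions -135, -128 and -85 when -1 is the base before the annotated start. Of the 10 members, 9 had an entry in the promoter table, and a match was found for 3 of the 9 (*Rag1*, *Dclre1c* and *Lig4*). Over all 32851 promoter entries 44.8% held CAGNTG in the same 250 bases. The forkhead core TGTTTNC was found on neither strand for any of the 9 members, and 17.8% of all entries held it. Only these letters were searched, in this window, so looser forms of the forkhead motif and distal elements were left unread.

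Levels are given as FPKM, a fragment count divided by gene length and by a total that the authors set for each sample. Whole reads were recovered from the FPKM steps, 10396878 to 14482758 per sample on listed genes. The dividing total was 14968316 in control 1, above its 14482758 reads, and 11093927 in Foxa1/2cKO 2, below its 11262410 reads. It was thus not a plain count of reads on listed genes. Log2 fold changes of Foxa1/2cKO over control come from limma, applied to log2(FPKM + 1) of the 10776 genes that reached 1 FPKM in 2 or more samples, and adjusted P-values (Benjamini-Hochberg) take in every one of these genes. *Foxa1* and *Foxa2* were listed at 0 in all 4 samples, so the genotypes could not be checked on them, and 0 reads allow up to 3 (counting error only). The labelled cell type was checked on its defining markers: *Cd4* ranged from 342 to 446 FPKM, *Cd8a* from 475 to 666 and *Cd69* from 103 to 121. On log2(FPKM + 1), the median difference from the control mean was -0.05 and 0.36 in Foxa1/2cKO 1 and Foxa1/2cKO 2 for 8 CD69+DP markers, and -0.17 and 0.32 for 8 markers of TCR signalling, of which 8 and 1 were below the control mean. Foxa1/2cKO 2 stood apart from the other samples. The SD across genes of the log2 difference was 0.198 for the control pair and 0.405 for the Foxa1/2cKO pair. The summed FPKM of 6 cycling genes was 501, 516, 560 and 240 in control 1, control 2, Foxa1/2cKO 1 and Foxa1/2cKO 2, and that of 7 mature SP genes was 289, 328, 326 and 196 in the same order. B cell genes, which mark another type of cell that can use RAG, summed to 77.4, 51.3, 105 and 56.0 FPKM in control 1, control 2, Foxa1/2cKO 1 and Foxa1/2cKO 2. The pro-B cell genes *Vpreb1* (at most 1.64 FPKM) and *Igll1* (listed at 0 in every sample) were at the bottom of the range. Myeloid genes summed to between 87.1 and 129 FPKM, of which *Cst3* made up 70.1 to 116, while *Lyz2*, *Csf1r*, *Cd68* and *Adgre1* were lowest in Foxa1/2cKO 2. The summed level of thymic epithelial genes was 4.89 to 7.61 FPKM and that of erythroid genes 0.608 to 2.67. The erythroid sum came almost wholly from *Alas2* (0.608 to 2.62 FPKM). Listed at 0 throughout, 4 globin genes were not read as a sign that erythroid cells were absent.

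The 10 genes differed in level far more than any of them differed between samples. Per length of gene, *Dntt* and *Rag1* were the highest, at means of 399 and 389 FPKM over the 4 samples, which placed them 94 and 95 among all genes listed. *Xrcc6* followed at 118 FPKM, *Rag2* at 38.6, *Lig4* at 28.8, *Xrcc5* at 16.6, *Xrcc4* at 14.5, *Dclre1c* at 10.4, *Nhej1* at 7.60 and *Prkdc* at 7.30. The order of *Dntt* and *Rag1*, of *Xrcc5* and *Xrcc4* and of *Nhej1* and *Prkdc* was not the same in every sample. *Rag2* was above *Lig4*, and *Xrcc4* above *Dclre1c*, in all 4 samples, although the ranges of each pair overlapped across samples. The ranges of the other neighbours did not overlap. The ratio of the highest to the lowest sample was smallest for *Rag2* (1.08) and largest for *Lig4* (1.55).

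**Figure D1:**
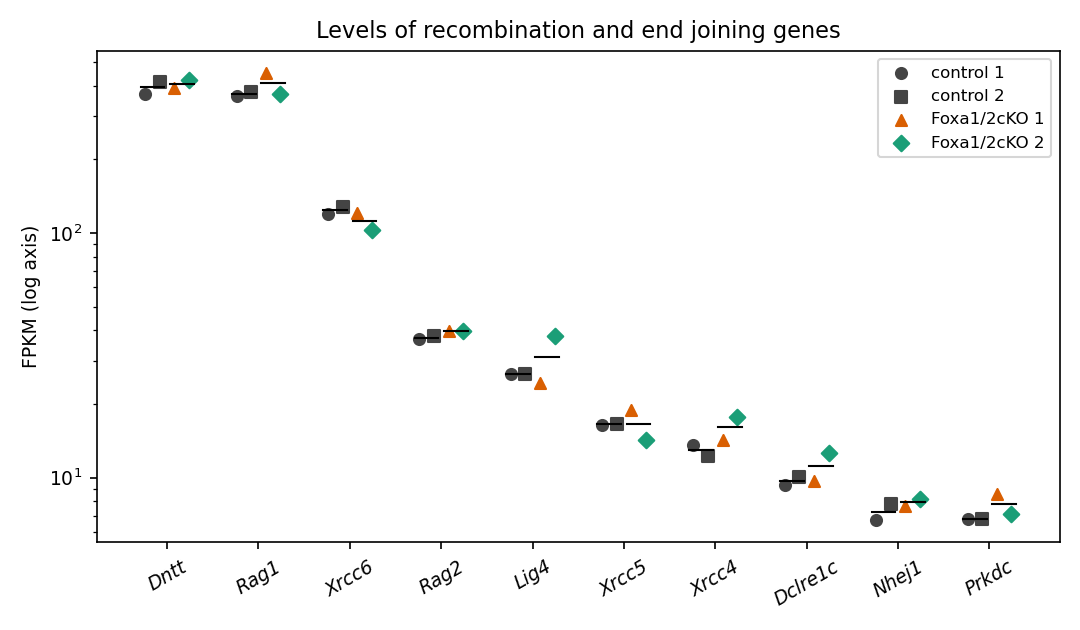
FPKM (log axis) of the 10 genes in each of the 4 samples, ordered by mean; points are samples and short lines are the means of the 2 samples of a group. *Dntt* and *Rag1* lie between 363 and 449 FPKM, while *Nhej1* and *Prkdc* lie between 6.71 and 8.57.

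None of the 10 genes passed the test between Foxa1/2cKO and control. Their log2 fold changes ran from -0.15 for *Xrcc6* to 0.28 for *Xrcc4*, and their adjusted p (limma) from 0.863 to 0.992. Over all genes tested, 0.00928% (1 gene) had an adjusted p under 0.05 and 4.55% an unadjusted p under 0.05. Of the 10 members, 0 had an unadjusted p under 0.05, and the smallest was 0.0980 for *Xrcc4*. By mean log2(FPKM + 1), 8 of the 10 were higher and 2 lower in Foxa1/2cKO, against 51.3% higher over all genes tested. *Xrcc5*, 1 of the 2, had a mean FPKM of 16.55 in control and 16.58 in Foxa1/2cKO. The median log2 fold change was 0.13 for the members and 0.01 over all genes tested. For 3 members the groups did not overlap, each time with Foxa1/2cKO higher (*Rag2*, *Prkdc* and *Xrcc4*). This was so for 36.7% of all genes tested, 18.9% on the higher side, so the share of members was near the background. With the samples rescaled by their total of recovered reads, a choice made after seeing the data, 1 member was left (*Xrcc4*). The share over all genes tested is not given for that scaling.

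RAG1 and RAG2, which together make up the recombinase, are encoded by neighbouring genes on chromosome 2 of mm10 that face each other: *Rag2* on the plus strand (101624712 to 101632528) and *Rag1* on the minus strand (101638252 to 101649532). *Rag1* stood at 363 and 375 FPKM in control 1 and control 2 and at 449 and 368 in Foxa1/2cKO 1 and Foxa1/2cKO 2, from 27247 to 36285 reads. Only Foxa1/2cKO 1 was high, and Foxa1/2cKO 2 lay between the controls. The log2 fold change of *Rag1* was 0.14 (SE 0.13, limma adjusted p = 0.868), with a 95% interval from -0.19 to 0.47, that is 0.876-fold to 1.39-fold. It was 0.28 without Foxa1/2cKO 2 and -0.0030 without Foxa1/2cKO 1.

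*Rag2* stood at 36.8 and 37.9 FPKM in control 1 and control 2 and at 39.9 and 39.9 in Foxa1/2cKO 1 and Foxa1/2cKO 2, from 1460 to 1870 reads. Both Foxa1/2cKO samples were above both controls by a small margin. The log2 fold change was 0.09 (SE 0.08, limma adjusted p = 0.864), and its 95% interval from -0.12 to 0.30 was the narrowest of the 10 members. Leaving out any 1 of the 4 samples gave 0.07 to 0.11. RNA of *Rag1* was thus several times that of *Rag2* per length of gene, by a ratio of 9.87 and 9.89 in control 1 and control 2 and of 11.3 and 9.22 in Foxa1/2cKO 1 and Foxa1/2cKO 2. The ratio, which does not depend on how samples are scaled, lay on both sides of the controls in Foxa1/2cKO (control 9.88 ± 0.00990, Foxa1/2cKO 10.3 ± 1.45, SD, n = 2, exact two-sided permutation p = 1). With 2 samples against 2 this test cannot go below 0.333.

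*Dntt* on chromosome 19 (41029275 to 41059525) encodes TdT, which diversifies the joins. It stood at 371 and 415 FPKM in control 1 and control 2 and at 390 and 420 in Foxa1/2cKO 1 and Foxa1/2cKO 2, from 8975 to 11997 reads. The groups overlapped, and the 2 controls differed by more than the 2 Foxa1/2cKO samples. The log2 fold change of *Dntt* was 0.05 (SE 0.10, limma adjusted p = 0.938), with a 95% interval from -0.23 to 0.32. Between *Dntt* and *Rag1* the order changed from sample to sample: the ratio of *Dntt* to *Rag1* was 1.02 and 1.11 in control 1 and control 2, but 0.868 and 1.14 in Foxa1/2cKO 1 and Foxa1/2cKO 2.

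Ku is a heterodimer of Ku80, encoded by *Xrcc5* on chromosome 1 (72307417 to 72394953), and Ku70, encoded by *Xrcc6* on chromosome 15 (81987833 to 82040085). *Xrcc5* stood at 16.5 and 16.6 FPKM in control 1 and control 2 and at 18.8 and 14.3 in Foxa1/2cKO 1 and Foxa1/2cKO 2. The Foxa1/2cKO samples thus lay on either side of the controls, and the log2 fold change was -0.01 (SE 0.15, limma adjusted p = 0.992). *Xrcc6* stood at 119 and 128 FPKM in control 1 and control 2 and at 121 and 102 in Foxa1/2cKO 1 and Foxa1/2cKO 2. Its log2 fold change of -0.15 (SE 0.12, limma adjusted p = 0.863) had a 95% interval from -0.45 to 0.15. Both genes were lowest in Foxa1/2cKO 2. The 2 subunits pair one to one in the protein, but RNA of *Xrcc6* exceeded that of *Xrcc5* by a ratio of 7.24 and 7.70 in control 1 and control 2 and of 6.42 and 7.15 in Foxa1/2cKO 1 and Foxa1/2cKO 2. The ratio was lower in both Foxa1/2cKO samples than in both controls (6.79 ± 0.513 against 7.47 ± 0.326, SD, n = 2), with an exact two-sided permutation p of 0.333, the smallest that this design allows.

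DNA-PKcs, the kinase that Ku recruits to the ends, is encoded by *Prkdc* on chromosome 16 (15637444 to 15842239), and Artemis, the nuclease it activates, by *Dclre1c* on chromosome 2 (3424061 to 3474211). *Prkdc* stood at 6.76 and 6.76 FPKM in control 1 and control 2 and at 8.57 and 7.09 in Foxa1/2cKO 1 and Foxa1/2cKO 2. Both Foxa1/2cKO samples were higher, Foxa1/2cKO 2 by little. The log2 fold change of *Prkdc* was 0.18 (SE 0.13, limma adjusted p = 0.863), and it was 0.06 without Foxa1/2cKO 1. *Prkdc* has the longest gene model of the 10, at 12674 bases, and with gene length corrected for in each sample its log2 fold change was 0.09.

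*Dclre1c* stood at 9.33 and 10.1 FPKM in control 1 and control 2 and at 9.67 and 12.6 in Foxa1/2cKO 1 and Foxa1/2cKO 2. Only Foxa1/2cKO 2 was high. The log2 fold change of *Dclre1c* was 0.17 (SE 0.15, limma adjusted p = 0.865), and it was -0.0039 without Foxa1/2cKO 2.

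Ligation needs DNA ligase IV (*Lig4*, chromosome 8, 9970020 to 9977680), its partner XRCC4 (*Xrcc4*, chromosome 13, 89848914 to 90089608) and XLF, which aligns the ends with XRCC4 (*Nhej1*, chromosome 1, 74967346 to 75125226). *Lig4* stood at 26.4 and 26.5 FPKM in control 1 and control 2 and at 24.4 and 37.9 in Foxa1/2cKO 1 and Foxa1/2cKO 2. The controls were almost equal, while the Foxa1/2cKO samples lay on either side of them and 1.55-fold apart. The log2 fold change of *Lig4*, 0.19 (SE 0.22, limma adjusted p = 0.872), had the widest 95% interval of the 10 members, from -0.37 to 0.76.

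*Xrcc4* stood at 13.6 and 12.2 FPKM in control 1 and control 2 and at 14.3 and 17.8 in Foxa1/2cKO 1 and Foxa1/2cKO 2, from 239 to 316 reads. It was the member with the largest log2 fold change, 0.28 (SE 0.14, limma adjusted p = 0.863), and the 95% interval from -0.08 to 0.65 included 0. Without Foxa1/2cKO 2 it was 0.14. *Nhej1* stood at 6.71 and 7.84 FPKM in control 1 and control 2 and at 7.66 and 8.20 in Foxa1/2cKO 1 and Foxa1/2cKO 2, from only 70 to 90 reads. Its groups overlapped, and its log2 fold change of 0.11 (SE 0.12, limma adjusted p = 0.872) came with a 95% interval from -0.20 to 0.43.

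**Figure D2:**
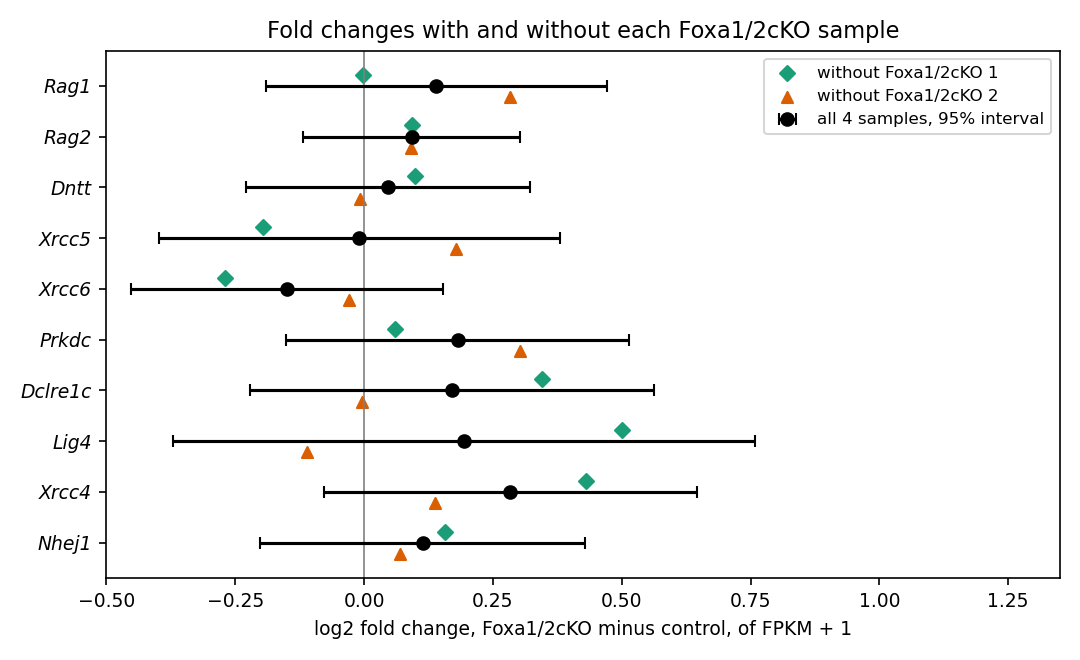
Log2 fold change of Foxa1/2cKO against control on log2(FPKM + 1) for the 10 genes, with all 4 samples (black, bars are 95% intervals from limma) and without each Foxa1/2cKO sample (coloured). All 10 intervals include 0, and the coloured points lie farthest apart for *Lig4* (0.50 and -0.11) and closest for *Rag2* (both 0.09).

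As for most genes tested, the difference within the Foxa1/2cKO pair exceeded that within the control pair for most members. The median absolute difference on log2(FPKM + 1) was 0.0705 for the control pair and 0.265 for the Foxa1/2cKO pair, and over all genes tested it was 0.0762 and 0.200. The difference was the larger one in Foxa1/2cKO for 7 of the 10 members and for 76.5% of all genes tested, so the share of members was not above the background. The other members were *Rag2*, *Nhej1* and *Dntt*, whose controls differed by 0.16 in log2 FPKM (8.67 times the counting error) and whose Foxa1/2cKO samples differed by 0.11 (5.08 times). For *Lig4*, the log2 difference in FPKM between the Foxa1/2cKO samples was 0.63, or 11.3 times its counting error, and between the controls it was 0.01, or 0.131 times. For *Rag1* the corresponding differences were -0.29 (24.2 times) and 0.04 (4.02 times). *Xrcc5*, *Xrcc6*, *Prkdc* and *Dclre1c* differed between the Foxa1/2cKO samples by 4.15 to 6.01 times their counting error, and *Xrcc4* by 2.51 times. *Rag2* (0.0504 times) and *Nhej1* (0.413 times) did not differ beyond it.

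The members differed in which sample held their highest and lowest value. *Dclre1c*, *Lig4* and *Xrcc4* were highest in Foxa1/2cKO 2 by over 0.3 on the log2 scale from Foxa1/2cKO 1, whereas *Rag1*, *Xrcc5* and *Prkdc* were highest in Foxa1/2cKO 1 and *Xrcc6* was highest in control 2. *Xrcc5* and *Xrcc6* were lowest in Foxa1/2cKO 2, as were 33.3% of all genes tested. Control 1 held the lowest value of 6 members (*Rag1*, *Rag2*, *Dntt*, *Prkdc*, *Dclre1c* and *Nhej1*), against 17.2% of all genes tested. In all, 6 of the 10 members were highest in Foxa1/2cKO 2 and 3 in Foxa1/2cKO 1, against 40.5% and 23.4% of all genes tested. The cycling genes were low and the CD69+DP and TCR signalling markers high in Foxa1/2cKO 2, and the B cell genes were highest in Foxa1/2cKO 1, as given above, and their part in these differences was not tested. In bulk RNA, a change in the share of cells that express a gene and a change in RNA per cell cannot be told apart.

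**Figure D3:**
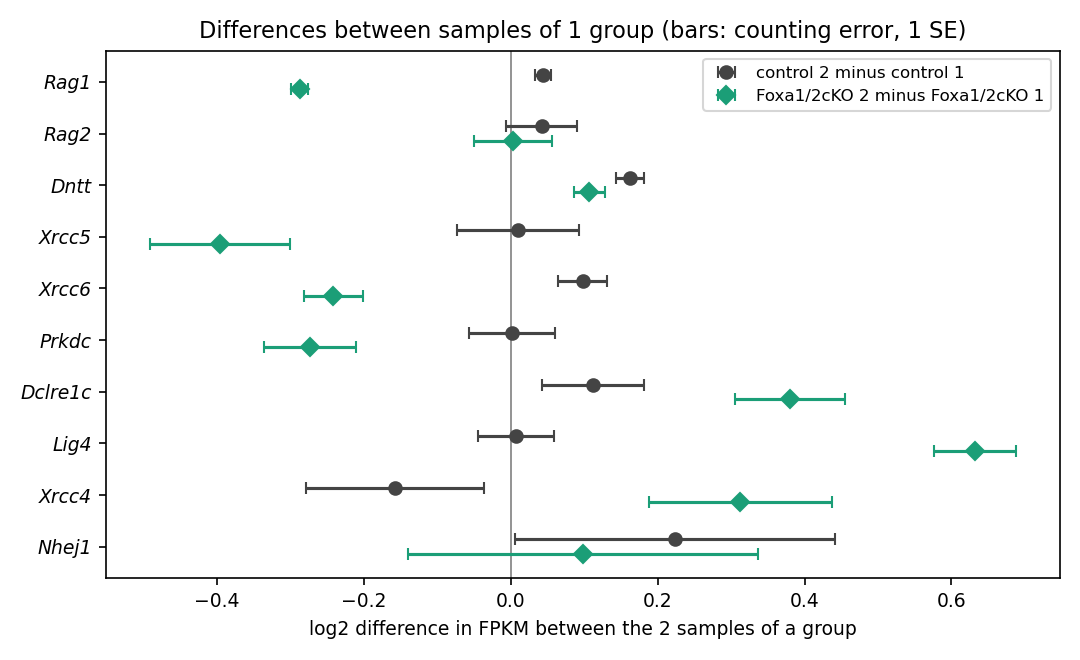
Log2 difference in FPKM between the 2 samples of each group for the 10 genes (dark circles, control 2 minus control 1; green diamonds, Foxa1/2cKO 2 minus Foxa1/2cKO 1), with bars of 1 standard error from read counting alone. The controls lie between -0.16 and 0.22, and the Foxa1/2cKO samples between -0.40 for *Xrcc5* and 0.63 for *Lig4*.

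When Foxa1/2cKO 1 was left out, 4 members passed the test: *Lig4* (log2 fold change 0.50, adjusted p = 0.00419), *Xrcc4* (0.43, adjusted p = 0.0212), *Xrcc6* (-0.27, adjusted p = 0.0248) and *Dclre1c* (0.34, adjusted p = 0.0421, all from limma). That fit called 25.4% of all genes tested, and its lone Foxa1/2cKO sample is assumed to vary like the controls. When Foxa1/2cKO 2 was left out instead, 0 members passed, against 0.224% of all genes, and the smallest adjusted p was 0.105 for *Rag1* (log2 fold change 0.28). These calls compare 1 sample with the controls and are not calls on the genotype.

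The other genes of break repair, in lists chosen with earlier results of these data known, had no gene past the threshold in any list, and the smallest adjusted p of each list from limma was 0.863. Of 8 other end joining and end processing genes tested, 4 were higher and 4 lower by mean, and the median log2 fold change was 0.03. *Tdp1*, which removes peptides from DNA ends, stood at 20.2 and 20.8 FPKM in control 1 and control 2 and at 19.4 and 14.8 in Foxa1/2cKO 1 and Foxa1/2cKO 2. The DNA polymerase gene *Polm*, a relative of *Dntt*, stood at 15.0 and 14.6 FPKM in control 1 and control 2 and at 13.9 and 19.97 in Foxa1/2cKO 1 and Foxa1/2cKO 2. *Polm* thus had its high value in the same sample as *Lig4*.

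Among 12 regulators of *Rag* transcription, 8 were higher and 4 lower by mean, with a median log2 fold change of 0.07. *Tcf12*, which encodes the E protein HEB, stood at 80.9 and 80.7 FPKM in control 1 and control 2 and at 87.9 and 103 in Foxa1/2cKO 1 and Foxa1/2cKO 2, a log2 fold change of 0.23 (unadjusted p = 0.0863 from limma). *Runx1* stood at 27.3 and 27.9 FPKM in control 1 and control 2 and at 24.0 and 24.7 in Foxa1/2cKO 1 and Foxa1/2cKO 2, a log2 fold change of -0.17. *Foxo1*, a forkhead factor, was at 33.0, 34.0, 32.1 and 21.2 FPKM in the same order. *Ets1*, a lymphoid transcription factor, ranged from 489 to 605 FPKM with overlapping groups. In Foxa1/2cKO 1, 9 of the 12 were below the control mean, and in Foxa1/2cKO 2, 2 were, against 5619 and 5020 of all 10776 genes tested.

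The 6 RAG partners and turnover genes had a median log2 fold change of -0.28. *Hmgb1*, which encodes a DNA-bending cofactor of RAG, stood at 124 and 131 FPKM in control 1 and control 2 and at 118 and 99.97 in Foxa1/2cKO 1 and Foxa1/2cKO 2. *Hmgb2* was at 98.9, 110, 98.7 and 39.3 FPKM in the same order, and *Skp2*, part of the ubiquitin ligase that degrades RAG2 in cycling cells, at 7.11, 7.13, 7.39 and 3.99. Both were low in Foxa1/2cKO 2 alone. The groups did not overlap for 4 of the 6 genes: *Hmgb1* and *Hmgb2*, lower in Foxa1/2cKO, and *Dcaf1* and the importin gene *Kpna1*, higher. Over all genes tested this share was 36.7%. *Kpna1* was at 16.7, 17.4, 20.3 and 18.4 FPKM. *Dcaf1* was apart by a very small margin, at 14.46, 14.29, 14.93 and 14.48 FPKM in the same order (log2 fold change 0.03). For *Hmgb2* too, Foxa1/2cKO 1 (98.7) was barely below control 1 (98.9).

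The repair genes outside classical end joining also divided the Foxa1/2cKO samples. On log2(FPKM + 1), the median difference of 7 homologous recombination genes from the control mean was 0.04 in Foxa1/2cKO 1 and -0.93 in Foxa1/2cKO 2. For 7 alternative end joining genes it was 0.06 and -0.28, for 14 genes of break response and end protection 0.01 and -0.13, and for the 10 members 0.08 and 0.10. The 6 cycling genes were at 0.05 and -1.28. *Lig1*, the replicative ligase, was at 38.7, 42.8, 37.8 and 13.7 FPKM in control 1, control 2, Foxa1/2cKO 1 and Foxa1/2cKO 2, while *Lig3* was at 16.4, 16.1, 17.0 and 17.8. *Mad2l2*, a shieldin subunit that protects ends from resection, had the smallest p of the break response list, with 9.63, 9.81, 8.45 and 6.81 FPKM, a log2 fold change of -0.32 (unadjusted p = 0.0626 from limma). In Foxa1/2cKO 2, 6 of the 7 homologous recombination genes and 3 of the 10 members were below the control mean. Those members were *Xrcc6* (-0.27), *Xrcc5* (-0.20) and *Rag1* (-0.0030).

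**Figure D4:**
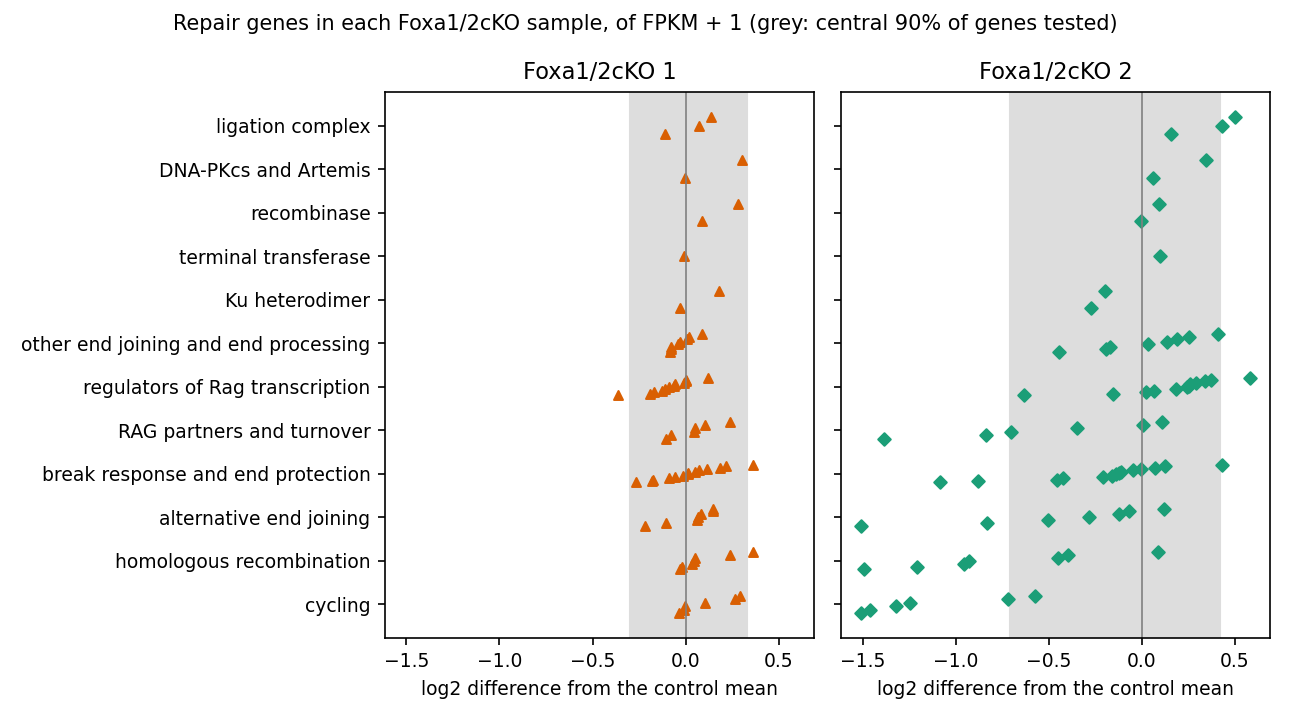
Difference of each gene from the control mean on log2(FPKM + 1) in Foxa1/2cKO 1 (left) and Foxa1/2cKO 2 (right), grouped by list; the grey band holds the central 90% of all genes tested. In Foxa1/2cKO 2 the medians of the homologous recombination and cycling genes lie left of the band (-0.93 and -1.28), with some of their genes inside it. The median of the 3 ligation complex genes (0.43, that of *Xrcc4*) lies just past its right edge (0.42), with *Nhej1* (0.16) inside it.

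*Ptcra*, which encodes the pre-TCR alpha chain of earlier thymocytes, stood at 11.2 and 11.9 FPKM in control 1 and control 2 and at 7.44 and 3.23 in Foxa1/2cKO 1 and Foxa1/2cKO 2. Both Foxa1/2cKO samples were below both controls, and the log2 fold change was -1.08 (SE 0.34, unadjusted p = 0.0273 and adjusted p = 0.863, both from limma). The TCR constant region genes *Trac*, *Trbc1*, *Trbc2* and *Trdc* were not analysed here. Summed over 6 markers of DN thymocytes, the stage before DP, the level was 44.2, 44.2, 38.2 and 17.7 FPKM in control 1, control 2, Foxa1/2cKO 1 and Foxa1/2cKO 2.

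The genes with the pattern over the 4 samples nearest to a member, by Euclidean distance between centred log2(FPKM + 1) values, followed their member closely. For *Rag1* they were *Fam73a* (distance 0.0157), *Atrnl1* (0.0188) and *Nfxl1* (0.0191), each highest in Foxa1/2cKO 1. For *Rag2* they were *Pgam5* (0.00886), *Chd2* (0.0122) and *Yae1d1* (0.0150). For *Dntt* they were *Rraga* (0.0198), *Mtfr1* (0.0232) and *Sema7a* (0.0261), each low in control 1 and Foxa1/2cKO 1. With only 4 samples and 10776 genes, such likeness is a description of these samples.

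Some reads cannot be placed with full confidence. *B230118H07Rik*, which is annotated across the *Rag* locus on the minus strand, shares 6.07% of the exon bases of *Rag2* and 1.21% of those of *Rag1*. *Desi1* overlaps 7.69% of the exon bases of *Xrcc6*, *Suv39h2* 3.83% of those of *Dclre1c* and *Tmem167* 2.66% of those of *Xrcc4*, each from the opposite strand, and the strand setting of the gene counts is not stated. Of the 50-base stretches of the longest *Dclre1c* transcript, 3.17% also occur in other genes, and 9.15% of those of *Xrcc6* do. No exon overlap was annotated for *Dntt*, *Xrcc5*, *Prkdc*, *Lig4* or *Nhej1*, and no 50-base stretch of their longest transcripts occurred in another annotated gene.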

How the data were processed

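RNA of 4 samples (2 control, 2 Foxa1/2cKO) was sequenced. The authors aligned reads to mm10 with RefSeq genes (TopHat per the submitters' processing notes) and HTSeq (union) gave gene counts, while the deposited values are FPKM per gene and sample. The step that turned counts into FPKM is not given in the sources used here. Whole reads were recovered from the FPKM steps for 100% of the 16069 genes above 0, and 96.3% of the 10222 better covered genes then had a whole number of bases as length. Depth was 10396878 to 14482758 recovered reads per sample, and standard errors from counting cover counting error only. The authors tested counts with DESeq2 and re-estimated the null with fdrtool. Here the deposited unit was tested, with limma 3.58.1 in R 4.3.3 on log2(FPKM + 1) with a mean-variance trend, and the recovered reads served for an alternative. Genes needed 1 FPKM in 2 or more samples, and the threshold was an adjusted p of 0.05 (2 residual and 2.69 prior degrees of freedom). Fold changes on this scale understate those of low genes. The fit was tested on simulated data, which does not measure its power on these samples. Python 3.11.15 served for tables (pandas 2.3.3, numpy 2.4.6), exact tests (scipy 1.17.1) and plots (matplotlib 3.10.9).

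The members and lists were chosen with earlier results of these data known. Named are the 10 members, genes from among the 4 with the smallest unadjusted p in each pathway list, and the 3 genes nearest in pattern to *Rag1*, *Rag2* and *Dntt*. List symbols were matched through RefSeq synonyms, and *Paxx*, *Shld3*, *Trac*, *Trbc1*, *Trbc2* and *Trdc* were not matched. *Dcaf1* was named after its values were seen, as 1 of 4 genes with groups apart. Alternatives were leaving out each sample, limma-voom on recovered reads, a length correction (alone or together with a replicate block), the replicate block alone, upper-quartile scaling, a threshold of 0.1, a pseudocount of 0.1, and a filter of 10 reads or none. Scaling to all recovered reads was added after seeing the data. Gene positions are from RefSeq, and strands and exon overlaps are from the GENCODE annotation of GRCm38.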

Additional observations from a re-analysis of the deposited data

How the results depend on the processing

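Of the 130 log2 fold changes of members refitted under the alternatives, 120 kept their direction and their side of the threshold, and the 10 that did not all left out a sample. Without Foxa1/2cKO 1, *Rag1* was at -0.0030 (0.28 without Foxa1/2cKO 2), and *Lig4* (0.50), *Xrcc4* (0.43), *Xrcc6* (-0.27) and *Dclre1c* (0.34) passed. Without Foxa1/2cKO 2, *Dntt* was at -0.01, *Xrcc5* at 0.18, *Dclre1c* at -0.0039 and *Lig4* at -0.11. *Xrcc5* kept its direction without Foxa1/2cKO 1 (-0.20). Without control 1, *Dntt* was at -0.03.

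With each sample left out in turn, 0 to 4 members and 0 to 2695 genes were called, and the median log2 fold change of the members ranged from 0.08 to 0.17, against 0.13. Members with groups apart numbered 3, and 4 to 9 with a sample left out, where 1 sample has to lie outside only 2. The number was 1 with scaling to all recovered reads, a choice made after seeing the data. The share over all genes tested is given only for all 4 samples as deposited (36.7%). The other counts therefore have no background beside them and are not read as a result about the members. In each pathway list, 0 genes were called with all samples. Leaving out a sample gave 0 to 3 for other end joining, 0 to 4 for RAG partners, 0 to 7 for regulators of *Rag* transcription, 0 to 4 for break response, 0 to 3 for alternative end joining, 0 to 4 for homologous recombination and 0 to 2 for the pair *Ptcra* and *Dad1*. These higher counts all came from the fit without Foxa1/2cKO 1, and 1 residual degree of freedom was left there.

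Over the whole table, 1 gene was called in the main test, 1 with the replicate block, and 0 with a pseudocount of 0.1, with no filter, with at least 10 reads, with upper-quartile scaling, with limma-voom, with scaling to all recovered reads and with the replicate block plus length correction. The cause was not tested. With length correction, with and without the block, the median of the members was 0.09. The replicate number is shared by name only. Deviations of same-numbered samples had a correlation of -0.0587 across genes, and the replicate block called 0 members, with a smallest adjusted p of 0.998 among them.

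Depth limits *Nhej1*, with 70 to 90 reads, more than the other members.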
